A study of Mus musculus with 6 samples.

Results

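Collagens are secreted proteins built from alpha chains that wind around each other into a triple helix. The genes described here are the 60 protein-coding genes whose symbol marks a collagen alpha chain (Col, a number, a and a number) or that belong to a fixed set of collagen-modifying genes: Lox, Loxl1 to Loxl4, Plod1 to Plod3, P3h1 to P3h4, P4ha1 to P4ha3 and Serpinh1. They comprised 44 chains and 16 enzymes and chaperones among 54532 genes in the count table. mRNA was measured in whole mouse cerebella on postnatal day 1 (P1), in 3 libraries of Tox3f/f littermates without Cre (control) and 3 libraries of Nestin-cre;Tox3f/f conditional knockouts (mutant), so that both groups carry the floxed Tox3 allele on both chromosomes. Nestin-cre is a transgene that produces Cre recombinase in neural precursors. Every mutant library and no control library carries it, and an effect of the transgene cannot be told apart from an effect of the deletion. The labels number the libraries without saying whether each is 1 animal or a pool, and p-values therefore measure the spread between libraries.

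Inside the cell, prolyl 4-hydroxylases stabilise the collagen helix, lysyl hydroxylases prepare sites for glycosylation and cross-links, prolyl 3-hydroxylases modify a small number of residues, and Serpinh1 (HSP47) is a chaperone that binds procollagen in the endoplasmic reticulum. Outside the cell, lysyl oxidases cross-link the assembled molecules. In the brain, fibrillar collagens are found chiefly in the meninges and around larger vessels, whereas type IV collagen and the multiplexins (types XV and XVIII) belong to the basement membranes of vessels and of the pial surface. The external granule layer, which holds the granule neuron progenitors, lies directly beneath that surface.

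The gene-level count of the targeted gene Tox3 (GRCm38 chr8:90247040-90348343, minus strand) did not separate the groups, with 63.9 ± 0.760 CPM in control and 59.3 ± 3.95 CPM in mutant libraries (SD, n = 3 each; log2 fold change -0.11, adjusted p = 0.252, edgeR's quasi-likelihood test). CPM values are counts divided by the effective library size, in which TMM factors correct for composition. Cre removes only the floxed part of the gene, so a count over the whole gene does not check the labels. Control and mutant mean here the libraries labelled so. By RT-qPCR the paper reports a near-complete deletion of Tox3 in mutant cerebella at P1. Atoh1, which marks granule neuron progenitors, stood at 31.8 ± 0.873 CPM in the control and 0.362 ± 0.186 CPM in the mutant libraries. Total counts ranged from 15391854 to 17178478 per library, at which 3 counts correspond to at most 0.196 CPM. A tissue-level count does not tell fewer cells of a type from less RNA per cell.

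Of the 60 genes, 58 had enough counts to be tested among 17505 genes in all. Genes were called at an adjusted p under 0.01 (Benjamini-Hochberg over all tested genes) and a log2 fold change beyond 0.5. By this rule 9 collagen genes rose in the mutant libraries (Col1a1, Col1a2, Col8a2, Col9a2, Col22a1, Col23a1, Lox, P4ha2 and P4ha3), against a background of 3.03% of all tested genes called higher. A further 3 fell (Col15a1, Col18a1 and Loxl1), against a background of 3.63% called lower and 6.66% called in either direction. The remaining 46 were not called, and Col10a1 and Loxl4, with fewer than 1 CPM in every library, were not tested. The median log2 fold change of the 58 tested genes was 0.27, and that of all tested genes was -0.01. All 3 mutant libraries lay above all 3 control libraries for 29 of the 58, where 20.4% of all tested genes did so, and below them for 5, where the background was 20.1%. Among the 43 tested chains 6 rose and 2 fell, and among the 15 tested enzymes and chaperones 3 rose and 1 fell. Counted without the thresholds, 44 of the 58 estimates were positive and 14 negative, where 8601 of all 17505 were positive and 8904 negative. The plot of fold changes by class shows called genes among the fibrillar, short chain, FACIT, transmembrane and multiplexin chains, the lysyl oxidases and the prolyl 4-hydroxylase subunits, and none among the chains of types IV and VI.

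**Figure D1:**
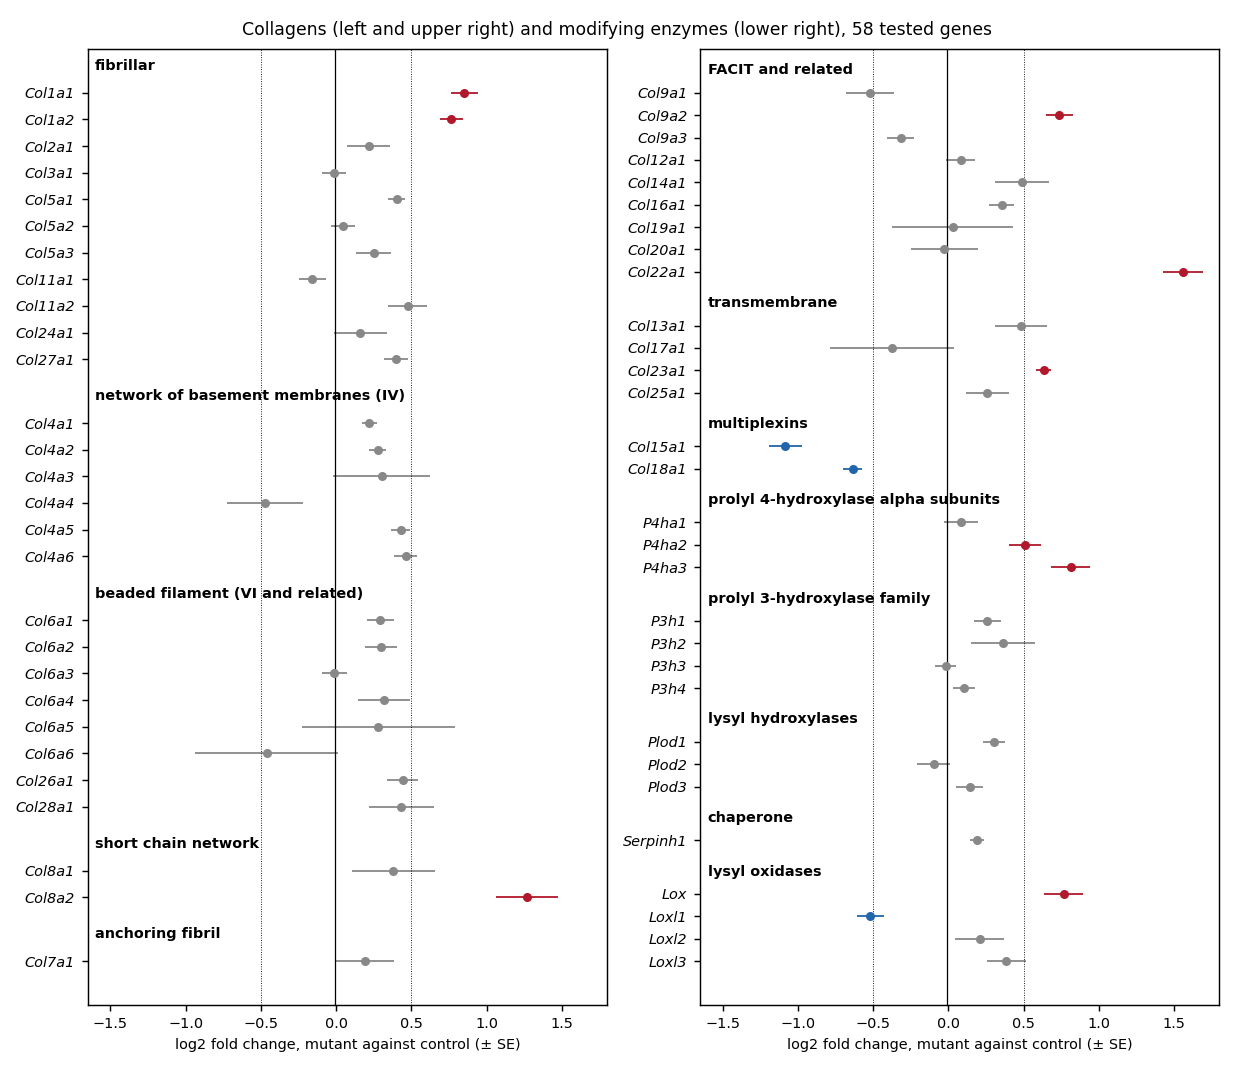
Log2 fold change of the 58 tested genes, mutant against control (x axis), by class, with bars of 1 standard error from edgeR; red marks genes called higher, blue genes called lower and grey the rest, and dotted lines stand at the threshold of 0.5 on either side of 0. Col22a1 lies farthest to the right at 1.56 and Col15a1 farthest to the left at -1.08.

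Per unit of gene length, in fragments per kilobase relative to the library total (FPKM), the most abundant of the 60 genes was Serpinh1, with 79.1 ± 2.28 FPKM in control and 90.6 ± 3.05 FPKM in mutant libraries (SD, n = 3 each, as for all FPKM values here). The chains at the top were Col4a1 (56.5 ± 2.18 and 66.1 ± 1.83 FPKM in control and mutant), Col4a2 (39.7 ± 2.22 and 48.3 ± 2.77 FPKM) and Col3a1 (34.1 ± 0.813 and 33.9 ± 4.53 FPKM). Col9a3 (26.2 ± 2.66 and 21.1 ± 2.22 FPKM) and Col23a1 (16.8 ± 0.529 and 26.2 ± 1.13 FPKM) followed, ahead of Col1a1 and Col1a2 by the mean over the 6 libraries. Summed over the 44 chains, the level was 351 FPKM in control and 419.5 FPKM in mutant libraries. In CPM the same sum was 2647, 2576 and 2614 in control 1 to 3 and 3331, 3015 and 2988 in mutant 1 to 3, so the groups did not overlap and mutant 1 was the highest. The shares of single chains differed. Col3a1 made up 9.70% of the chains' FPKM in control and 8.06% in mutant libraries, Col1a1 went from 4.19% to 6.35% and Col18a1 from 5.18% to 2.80%.

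**Figure D2:**
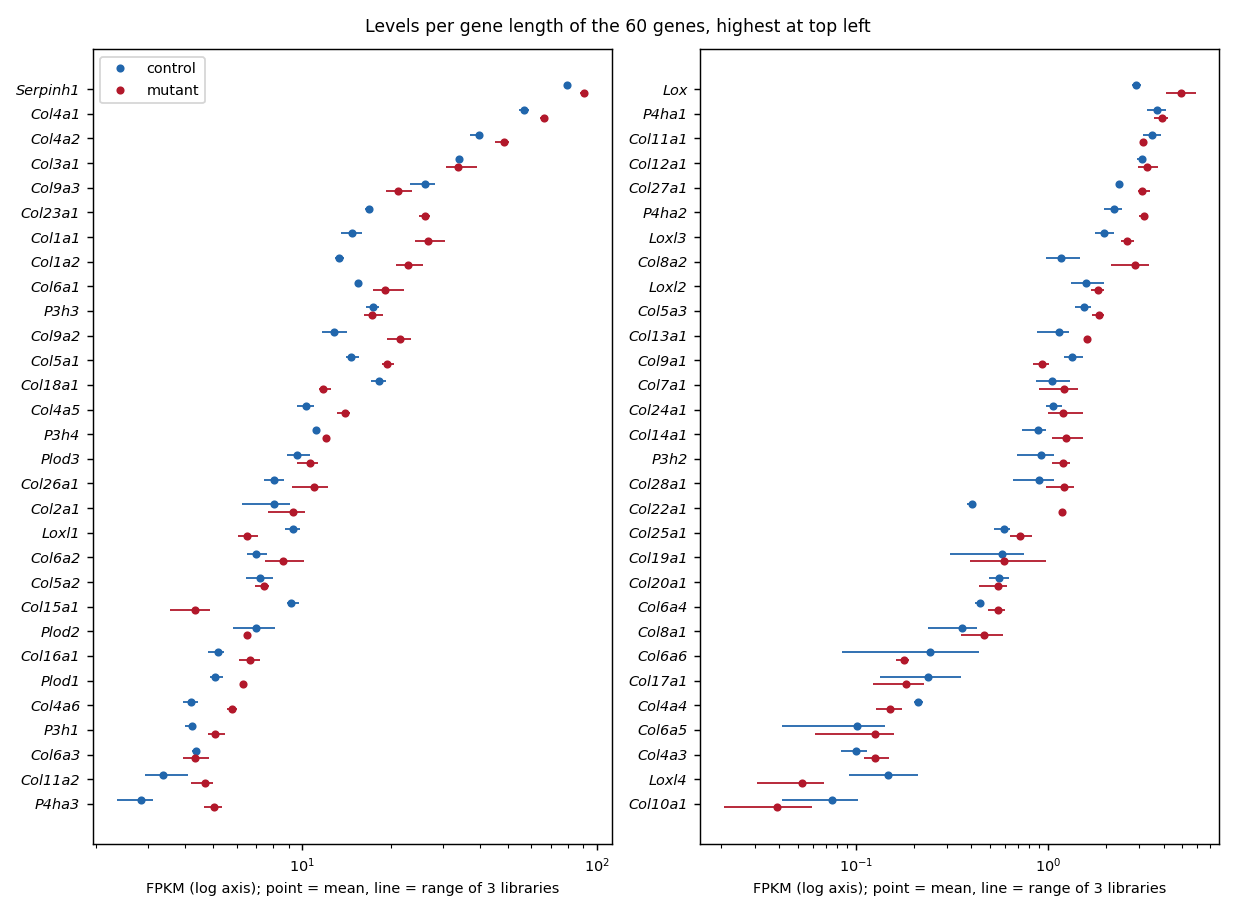
Levels of the 60 genes in FPKM on a log axis, ordered by their mean over the 6 libraries from top left to bottom right; points are means and lines span the 3 libraries of a group. The lines of the 2 groups are apart for Col1a1, Col1a2, Col15a1, Col18a1, Col23a1 and Col22a1 and lie over each other for Col3a1.

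The fibrillar collagens form the banded fibres of connective tissue. Type I, the main collagen of meninges, bone and skin, is a heterotrimer of the Col1a1 and Col1a2 chains. Col1a1 (ENSMUSG00000001506, GRCm38 chr11:94936224-94953042, plus strand) stood at 106, 89.7 and 97.0 CPM in control 1, 2 and 3 and at 201, 161 and 166 CPM in mutant 1, 2 and 3. The groups did not overlap, and mutant 1 was the highest of the 6. The log2 fold change was 0.85 ± 0.09 (SE; adjusted p = 1.70e-04, edgeR). Col1a2 (ENSMUSG00000029661, chr6:4504814-4541544, plus strand) showed the same order, with 174, 162 and 167 CPM in the control and 320.0, 276 and 259 CPM in the mutant libraries. It rose by 0.77 ± 0.07 on the log2 scale (adjusted p = 9.85e-05, edgeR).

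Type III collagen, a homotrimer of Col3a1 that accompanies type I in vessels and skin and that binds the receptor Adgrg1 in the developing brain, did not follow type I. Col3a1 (chr1:45311538-45349706, plus strand) had 339, 345 and 329 CPM in the control and 384, 316 and 303 CPM in the mutant libraries. Mutant 1 was above and mutants 2 and 3 were below all controls, and the estimate was -0.01 ± 0.08 (adjusted p = 0.930, edgeR). Its sign changed under 5 of the 20 alternative settings, 3 of which leave out 1 library. The log2 ratio of Col1a1 to Col3a1, a pair chosen after the values were seen, was -1.10, -1.36 and -1.18 in the control and -0.35, -0.39 and -0.29 in the mutant libraries. The groups did not overlap, the difference was 0.87, and the two-sided exact permutation p was 0.1, the smallest that 3 libraries against 3 allow. As the pair was picked from these same values, this p lends no support.

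The other 8 fibrillar chains were not called. Col5a1, whose product takes part in starting fibrils, was at 126 ± 6.66 CPM in control and 166 ± 7.16 CPM in mutant libraries (SD, n = 3 each), with non-overlapping groups, a log2 fold change of 0.40 and an adjusted p of 7.71e-04 (edgeR). It passed the threshold on p but not the one on fold change. The same held for Col27a1 (0.40, adjusted p = 0.00541, edgeR). Col11a2, a chain of type XI, had 21.1, 20.2 and 28.2 CPM in control and 34.1, 28.9 and 33.8 CPM in mutant libraries, whose ranges were close but apart (0.48, adjusted p = 0.0230, edgeR). Its partner Col11a1 had an estimate of -0.16, and Col2a1, Col5a2, Col5a3 and Col24a1 lay between 0.04 and 0.25. The class as a whole summed to 104 FPKM in control and 134 FPKM in mutant libraries.

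Type IV collagen is the network-forming collagen of basement membranes. Its 6 chains are encoded head to head as pairs on 3 chromosomes. Col4a1 and Col4a2, whose chains form the heterotrimer found in nearly all basement membranes, start 21 bases apart on opposite strands of chromosome 8, and their first exons share 22 bases. The promoter window of Col4a2 in RefSeq (GRCm38.p6, chr8:11312555-11312854, plus strand, from 250 bases before to 50 bases after its start) is shown because it covers both starts, and capitals mark the 22 shared bases (11312805 to 11312826).
Col4a1 and Col4a2: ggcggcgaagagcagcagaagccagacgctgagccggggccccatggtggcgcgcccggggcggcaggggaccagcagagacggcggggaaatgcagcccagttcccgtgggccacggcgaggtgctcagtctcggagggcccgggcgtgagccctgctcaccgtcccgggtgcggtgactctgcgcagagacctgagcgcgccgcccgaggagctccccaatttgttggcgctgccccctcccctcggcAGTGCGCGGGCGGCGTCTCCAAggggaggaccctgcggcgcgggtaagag
This window is 73.7% G or C and holds 3 copies of GGGCGG on either strand, a sequence that zinc finger factors of the Sp family bind and that occurs in 35.7% of all 32851 windows of this length and in 64.6% of the 48 windows found for 44 of the 60 genes.

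Col4a1 stood at 425, 442 and 409.6 CPM in the control and 507, 501 and 480.4 CPM in the mutant libraries, and Col4a2 at 274, 273 and 248 CPM and 335, 302 and 326 CPM. For both genes all mutant libraries were above all controls in CPM, although relative to the summed counts of meningeal markers, a scaling added after the data were seen that moved the median of all genes to -0.40, the estimates were -0.17 and -0.11. Under the TMM scaling the differences were small, 0.22 ± 0.05 for Col4a1 (adjusted p = 0.00821) and 0.28 ± 0.06 for Col4a2 (adjusted p = 0.00638, both from edgeR's quasi-likelihood test), and below the fold change threshold. The X-linked pair Col4a5 and Col4a6, whose starts lie 1309 bases apart, was closer to it. Col4a5 went from 70.0 ± 4.69 to 94.2 ± 4.34 CPM (log2 fold change 0.43, adjusted p = 0.00119) and Col4a6 from 33.8 ± 1.86 to 46.5 ± 1.54 CPM (0.46, adjusted p = 0.00165, edgeR), with no overlap of the groups for either. The third pair, Col4a3 and Col4a4, best known from the kidney glomerulus, was scarce at 0.101 and 0.210 FPKM in the control libraries, and its chains had estimates of 0.30 (adjusted p = 0.535) and -0.47 (adjusted p = 0.201, edgeR).

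Types XV and XVIII, the multiplexins, are proteoglycan collagens of basement membranes, and the C-terminal part of the type XVIII chain is endostatin. Both fell. Col15a1 (ENSMUSG00000028339, chr4:47208161-47313167, plus strand) had 62.7, 56.8 and 56.8 CPM in control 1, 2 and 3 and 30.9, 22.8 and 29.3 CPM in mutant 1, 2 and 3. Every mutant library lay below every control, with mutant 2 the lowest. The log2 fold change was -1.08 ± 0.11 (adjusted p = 1.29e-04, edgeR), the largest fall among the 58 genes, and the call held under all 20 alternatives. Col18a1 (ENSMUSG00000001435, chr10:77052178-77166548, minus strand) had 136, 121 and 129 CPM in control and 87.9, 80.9 and 80.1 CPM in mutant libraries. The groups did not overlap and the mutant libraries lay close together. It fell by 0.64 on the log2 scale (SE 0.06, adjusted p = 1.04e-04, edgeR).

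Against type IV collagen, with which they share basement membranes, the multiplexins moved apart. The log2 ratio of Col15a1 to Col4a1 was -2.53, -2.73 and -2.62 in control and -3.80, -4.22 and -3.80 in mutant libraries, a difference of -1.32. For Col18a1 over Col4a1 the difference was -0.86, and for Col15a1 over Col18a1 it was -0.46. These ratios were chosen after the values were seen. Each separated the groups without overlap. The two-sided exact permutation p was 0.1, the smallest possible, but it lends no support, since the pairs were picked from these same values. Col18a1 lies on chromosome 10 near Col6a1 and Col6a2, with the 3 start sites on the same strand within 542918 bases, but these neighbours had estimates of 0.29 and 0.30.

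The promoter windows of the multiplexin genes are printed because these were the chains that fell. RefSeq holds 1 window for Col15a1 (GRCm38.p6, chr4:47207762-47208061, plus strand) and 2 for Col18a1, whose starts lie 52825 bases apart. The upstream one is chr10:77166481-77166780 and the downstream one chr10:77113656-77113955, both on the minus strand. Capitals mark CANNTG (the E-box core, bound by basic helix-loop-helix factors, of which Atoh1 is one) in the Col15a1 window and GGGCGG or its complement CCGCCC in the Col18a1 windows.
Col15a1: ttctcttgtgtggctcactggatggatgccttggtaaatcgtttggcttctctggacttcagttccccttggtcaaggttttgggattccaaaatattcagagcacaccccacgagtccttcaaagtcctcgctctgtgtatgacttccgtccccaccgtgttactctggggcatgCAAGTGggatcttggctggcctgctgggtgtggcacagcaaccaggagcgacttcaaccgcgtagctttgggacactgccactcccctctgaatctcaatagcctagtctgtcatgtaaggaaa
Col18a1 upstream start: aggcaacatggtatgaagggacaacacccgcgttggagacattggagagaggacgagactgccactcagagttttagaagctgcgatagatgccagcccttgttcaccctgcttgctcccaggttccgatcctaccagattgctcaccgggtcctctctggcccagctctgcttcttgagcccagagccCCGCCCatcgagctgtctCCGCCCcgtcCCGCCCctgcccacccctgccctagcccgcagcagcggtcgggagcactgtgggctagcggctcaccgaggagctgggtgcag
Col18a1 downstream start: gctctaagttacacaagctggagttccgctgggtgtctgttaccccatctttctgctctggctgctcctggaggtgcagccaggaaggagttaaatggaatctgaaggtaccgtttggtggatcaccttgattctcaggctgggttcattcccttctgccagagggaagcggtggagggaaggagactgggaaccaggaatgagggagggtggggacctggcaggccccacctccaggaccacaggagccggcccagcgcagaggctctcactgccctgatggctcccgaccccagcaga
The Col15a1 window held 1 CANNTG, which reads CAAGTG, and no GGGCGG. The Col18a1 windows held no CANNTG, and the upstream one held 3 copies of GGGCGG where the downstream one held none. CANNTG was present in 72.3% of all windows and in 52.1% of those of the collagen genes (25 of 48). A match is a description of the letters in the window, and gene-level counts do not tell which Col18a1 start was in use. The windows cover only the stretch around a start. The paper reports an E-box in a Col18a1 enhancer that Tox3 and Atoh1 both bind, and counts Col18a1 among genes enriched in granule neuron progenitors. In its reporter assays this enhancer was strongly induced only with TOX3 and Atoh1 together. The paper also reports lower Col18a1 in cerebella lacking Atoh1 and, from single nuclei, fewer cells expressing it in Tox3 mutants. The place of the enhancer's E-box relative to these windows was not examined.

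Type VI collagen forms beaded filaments near cell surfaces. None of its 6 chains was called. Col6a1 had 67.6, 70.5 and 67.7 CPM in control and 97.3, 78.1 and 76.6 CPM in mutant libraries, apart but with mutant 1 well above the others (log2 fold change 0.29, adjusted p = 0.0357, edgeR, and -0.11 relative to the meningeal markers). Col6a2 was at 58.6 ± 4.92 and 72.0 ± 11.6 CPM with overlapping groups (0.30, adjusted p = 0.0730, edgeR, and -0.11 relative to the meningeal markers). Col6a3 was at 52.6 ± 1.60 and 52.1 ± 5.36 CPM, with an estimate of -0.01 (adjusted p = 0.934, edgeR) whose sign changed in 5 of the 20 alternatives. Col6a4 to Col6a6 were at 0.102 to 0.442 FPKM in control libraries and were not called. Col26a1 and Col28a1, placed in this class as related chains, had estimates of 0.44 (adjusted p = 0.0106) and 0.43 (adjusted p = 0.179, edgeR).

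FACIT collagens lie on the surface of fibrils and do not form fibrils themselves. The largest rise among all 58 genes was that of Col22a1 (ENSMUSG00000079022, chr15:71795795-72034227, minus strand), which is known from tissue junctions such as that of muscle and tendon. Its counts were 60, 54 and 59 in control 1 to 3 and 193, 174 and 170 in mutant 1 to 3, or 3.91, 3.52 and 3.79 CPM against 11.1, 11.3 and 10.6 CPM. Both groups were tight and far apart. The log2 fold change was 1.56 ± 0.13 (adjusted p = 4.71e-05, edgeR). The gene was scarce per length, at 0.402 ± 0.0213 FPKM in control and 1.19 ± 0.0381 FPKM in mutant libraries. Markers of skeletal muscle summed to 28.4 to 31.4 CPM in control and 54.4 to 57.2 CPM in mutant libraries. Of the 6 of them that were tested only Myh8 was called, and it rose (1.33). By sign 4 of the 6 estimates were positive and 2 negative, the lowest at -0.35, and the groups overlapped for 5. The part of muscle in the Col22a1 difference was not tested.

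Type IX collagen, which decorates type II fibrils in cartilage, is assembled from the Col9a1, Col9a2 and Col9a3 chains. Only Col9a2 was called. It had 39.3, 36.4 and 44.4 CPM in control and 72.3, 60.7 and 67.0 CPM in mutant libraries, with no overlap, and rose by 0.74 ± 0.09 on the log2 scale (adjusted p = 4.22e-04, edgeR; chr4:121039385-121055322, plus strand). Col9a1 was at 6.18, 7.75 and 6.55 CPM in control and 4.79, 4.30 and 5.17 CPM in mutant libraries, all of them lower than the controls, without passing the test (-0.52, adjusted p = 0.0393, edgeR). Col9a3, the most abundant of the chains, had 105, 90.0 and 109.8 CPM against 78.7, 75.3 and 91.2 CPM, where mutant 3 reached into the control range (-0.32, adjusted p = 0.0278, edgeR). A stretch of 6.07% of the exon bases of Col9a3 overlaps Tcfl5 on the opposite strand, and whether reads were counted by strand is not given in the sources used here. Markers of cartilage and bone were near the detection limit, with 7 of 11 not tested. Of the 4 tested, Alpl rose and Ucma fell.

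Of the remaining FACIT and related chains, Col12a1, Col14a1, Col16a1, Col19a1 and Col20a1 were not called. Col16a1 was at 35.5 ± 2.52 CPM in control and 45.3 ± 3.41 CPM in mutant libraries (0.35, adjusted p = 0.0140, edgeR), without overlap. The estimates of the others lay between -0.03 and 0.49.

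Among the transmembrane collagens, which span the plasma membrane, Col23a1 rose (ENSMUSG00000063564, chr11:51289920-51583918, plus strand). It stood at 96.5, 94.8 and 101 CPM in control 1, 2 and 3 and at 151, 145 and 156 CPM in mutant 1, 2 and 3. Spread within the groups was small and the groups were far apart, and the log2 fold change of 0.63 ± 0.05 had the smallest adjusted p among the 58 genes (3.72e-05, edgeR). Relative to the meningeal markers the estimate was 0.24 (adjusted p = 0.186, edgeR) and the call was lost, as it was in a test against the fold change threshold itself (adjusted p = 0.126, edgeR's glmTreat). Col13a1 was at 5.29 ± 1.03 and 7.39 ± 0.225 CPM (0.48, adjusted p = 0.0654, edgeR). Col17a1 and Col25a1 had estimates of -0.37 and 0.26 and were not called.

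The short chain collagens of type VIII build hexagonal networks, known from the basement membrane of the corneal endothelium. Col8a2 (ENSMUSG00000056174, chr4:126286793-126314330, plus strand) had 4.43, 4.75 and 6.68 CPM in control and 13.5, 9.65 and 15.1 CPM in mutant libraries. The groups did not overlap, but both were spread widely. It rose by 1.27 ± 0.21 on the log2 scale (adjusted p = 0.00171, edgeR), and the call was lost under 5 of the 20 alternatives, among them the fits of FPKM values and the fit without control 2, in which the estimate was 1.20. Its partner Col8a1, at 2.83 ± 0.819 and 3.68 ± 0.904 CPM, was not called (0.38, adjusted p = 0.352, edgeR). Col7a1, the chain of anchoring fibrils, had an estimate of 0.19, and Col10a1 had 5 counts or fewer in each library.

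**Figure D3:**
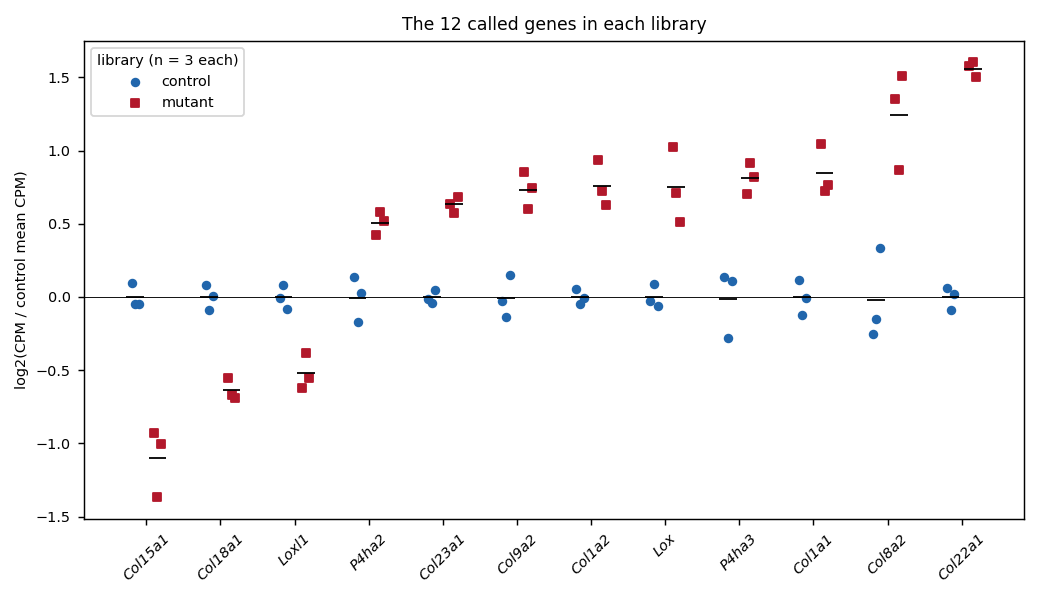
The 12 called genes in each library, as log2 of the CPM over the mean CPM of the control libraries (y axis); circles are control and squares mutant libraries, and short lines are group means. No mutant library of any of the 12 genes reaches a control library, and Col8a2 has the widest spread.

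Among the lysyl oxidases, which cross-link collagen and elastin, Lox and Loxl1 went opposite ways. Lox (ENSMUSG00000024529, on chromosome 18) had 13.7, 14.8 and 13.4 CPM in control and 28.4, 22.9 and 19.9 CPM in mutant libraries. The groups were apart and mutant 1 was the highest. The log2 fold change was 0.77 ± 0.13 (adjusted p = 0.00222, edgeR), and the call was lost in 6 of the 20 alternatives, including that without control 3 (0.74). Loxl1 (ENSMUSG00000032334, chr9:58287738-58313186, minus strand), known for its part in elastic fibres, had 30.8, 32.7 and 29.2 CPM in control and 20.1, 23.7 and 21.1 CPM in mutant libraries. The groups did not overlap. It fell by 0.52 on the log2 scale (SE 0.09, adjusted p = 0.00262, edgeR), close to the threshold, and the call was lost in 8 of the 20 alternatives. Without control 2, mutant 1 or mutant 3 the estimate was -0.48, -0.47 or -0.50. Loxl2 and Loxl3 had estimates of 0.21 and 0.38 and were not called (adjusted p = 0.391 and 0.0533, edgeR), and Loxl3 shares 11.6% of its exon bases with Htra2 on the opposite strand. Loxl4 was at 0.586, 0.391 and 0.899 CPM in control and 0.288, 0.130 and 0.249 CPM in mutant libraries and was not tested.

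The alpha subunits of prolyl 4-hydroxylase carry its catalytic site. P4ha3 (ENSMUSG00000051048, chr7:100285520-100319699, plus strand) was at 9.89, 7.42 and 9.70 CPM in control and 14.7, 16.9 and 15.9 CPM in mutant libraries, with no overlap, and rose by 0.81 ± 0.13 on the log2 scale (adjusted p = 0.00171, edgeR). P4ha2 (ENSMUSG00000018906, chr11:54100095-54131665, plus strand) was at 15.2, 12.3 and 14.1 CPM and 18.6, 20.8 and 19.9 CPM, again without overlap. Its log2 fold change of 0.51 ± 0.10 (adjusted p = 0.00607, edgeR) lay just past the threshold, and the call was lost in 11 of the 20 alternatives, among them every omission of 1 library except that of control 1, with estimates between 0.43 and 0.55. P4ha1, the third subunit, was at 15.4 ± 1.79 and 16.3 ± 1.45 CPM (0.08, adjusted p = 0.641, edgeR). Summed over the subunits the level was 8.76 FPKM in control and 12.1 FPKM in mutant libraries.

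The other intracellular enzymes were not called. Plod1, a lysyl hydroxylase, was at 34.7 ± 1.95 CPM in control and 42.7 ± 0.818 CPM in mutant libraries, without overlap (0.30, adjusted p = 0.0139, edgeR). Plod2 and Plod3 had estimates of -0.10 and 0.14, and the 4 genes of the prolyl 3-hydroxylase family lay between -0.02 and 0.36. Exon bases shared with a gene on the opposite strand made up 11.7% of Plod3 (Znhit1) and 28.4% of P3h2 (Gm4524). Serpinh1 had 191, 192 and 201 CPM in control and 222, 231 and 214 CPM in mutant libraries, which did not overlap, and its log2 fold change of 0.19 ± 0.05 did not pass either threshold (adjusted p = 0.0149, edgeR; -0.20 relative to the meningeal markers).

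Chains of 1 collagen were also compared with each other within a library, as the log2 of their FPKM ratio. The ratio of partner chains was much alike between groups for Col1a1/Col1a2 (difference 0.09, exact permutation p = 0.2), Col4a1/Col4a2 (-0.06, p = 0.5), Col4a5/Col4a6 (-0.03, p = 0.9) and Col6a1/Col6a2 (-0.00, p = 1). In these 4 pairs the groups overlapped. The control and mutant libraries were apart in the other 6 pairs, each at an exact two-sided permutation p of 0.1, the smallest the design allows (0.167 after Benjamini-Hochberg adjustment over 10 pairs). The widest difference was that of Col9a1/Col9a2, with log2 ratios of -3.38, -2.94 and -3.47 in control and -4.63, -4.53 and -4.41 in mutant libraries (difference -1.26). It was followed by Col8a1/Col8a2 (-0.87), Col4a3/Col4a4 (0.79, from chains with few counts), Col11a1/Col11a2 (-0.64), Col5a1/Col5a2 (0.35) and Col6a3/Col6a1 (-0.30). Thus no partner pair reached an adjusted p under 0.05 and the design could not give one.

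**Figure D4:**
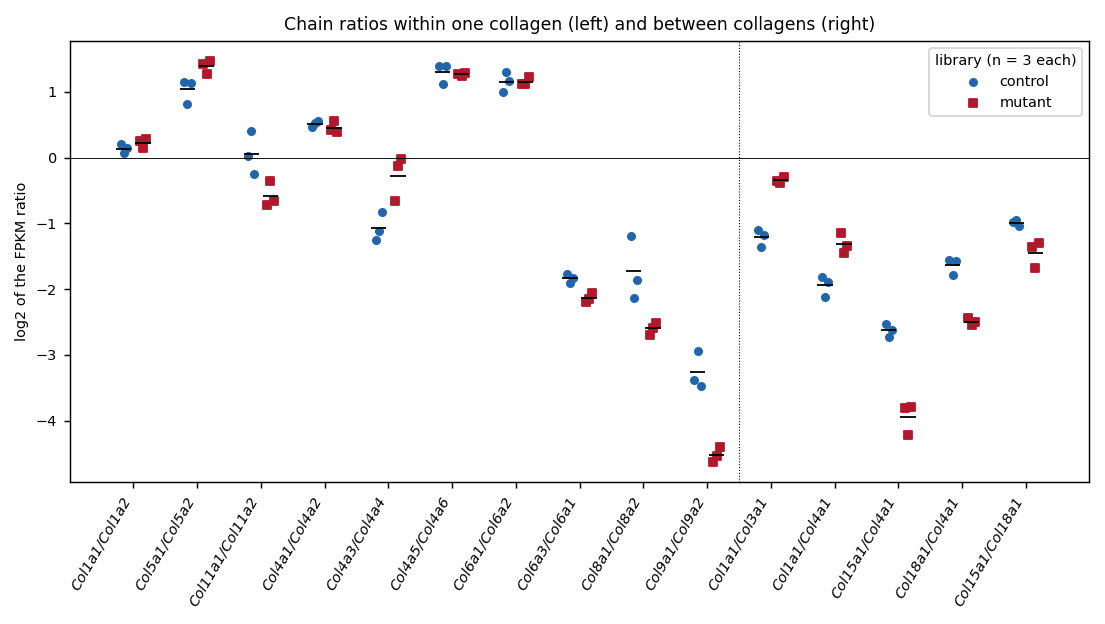
Log2 of the FPKM ratio of 2 chains in each library (y axis), for the 10 pairs of partner chains (left of the dotted line) and for 5 pairs of different collagens chosen after the values were seen (right); circles are control and squares mutant libraries, and short lines are group means. Col1a1/Col1a2 and Col4a1/Col4a2 overlap between the groups, and Col9a1/Col9a2 moves from a mean of -3.27 to one of -4.52.

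Genes that act on or with collagen outside these families were read from the same fit. Of 55 such genes in 4 lists 51 were tested, with a median log2 fold change of 0.12. Of these, 7 were called higher and 1 lower, where 3.03% and 3.63% of all tested genes were. Of the 19 genes for processing, folding and export of procollagen, the N-propeptidase gene Adamts2 rose (0.63 ± 0.12, adjusted p = 0.00508) and the related Adamts14 fell (-0.73 ± 0.11, adjusted p = 0.00150, edgeR). P4hb, which encodes the other subunit of prolyl 4-hydroxylase, was at 234 ± 1.22 and 239 ± 1.82 CPM and was not called. Of 10 tested collagen receptors, Mrc2, which takes up collagen into cells, and Lair1, an inhibitory receptor of immune cells, rose by 0.57 and 1.08 on the log2 scale. By sign 6 of the 10 estimates were positive and 4 negative. Adgrg1 went from 236 ± 4.39 to 188 ± 8.44 CPM (SD; -0.33, adjusted p = 9.10e-04, edgeR). Ddr1 went from 186 ± 13.7 to 235 ± 4.33 CPM (SD; 0.34, adjusted p = 0.00199, edgeR). Both groups were apart for each gene, but neither passed the fold change threshold. Of 9 tested genes for collagen breakdown and its inhibitors, only Mmp2, a gelatinase, was called, and it rose (0.74). Of 13 tested small leucine-rich proteoglycans and fibril partners, Thbs2 (0.98), Fmod (1.76) and Ogn (1.22) rose. Fmod, which binds type I fibrils, went from 11.1, 14.8 and 11.2 CPM to 53.2, 45.1 and 27.6 CPM.

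The markers of cell types that make or border on collagen moved as follows, where 3.03% of all tested genes were called higher and 3.63% lower. Of 11 tested markers of meninges and fibroblasts 2 were called, Slc22a6 and Ogn, both higher. By sign 8 of the 11 estimates were positive and 3 negative, the lowest at -0.41. Dcn, Lum and Ogn are also in the list of proteoglycans and fibril partners above. The summed level of the meningeal list was 181 to 208 CPM in control and 237 to 299 CPM in mutant libraries, and mutant 1 was the highest. Mutant 1 was also the highest for Col1a1, Col1a2, Col3a1, Col6a1, Col6a2 and Lox. This was not particular to these genes, as it held for Col9a2 and for the type IV chains Col4a1, Col4a2, Col4a5 and Col4a6. The rising genes Col8a2, Col22a1, Col23a1, P4ha2 and P4ha3 were highest in another mutant library. Without mutant 1, Col1a1, Col1a2 and Lox were still called. Relative to the summed meningeal markers the log2 fold changes of Col1a1 and Col1a2 were 0.45 and 0.36 (adjusted p = 0.0119 and 0.0378, edgeR) and no longer called. The calls of 5 more rising genes ended under this scaling: Col9a2 (0.33), Col23a1 (0.24), Lox (0.36), P4ha2 (0.12) and P4ha3 (0.42), so that 7 of the 9 rises were lost. Of the rising genes Col22a1 (1.17) and Col8a2 (0.86) were still called higher, and Col15a1 (-1.48), Col18a1 (-1.03) and Loxl1 (-0.90) were still called lower. Col9a1, Col9a3 and Col11a1 were called lower in addition. These values are to be read against the median of -0.40 that all genes then had.

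None of 12 endothelial markers was called, and their sum was 507 to 559 CPM in control and 499 to 514 CPM in mutant libraries. Scaled to that sum, Col15a1 and Col18a1 were still called lower, all 9 rising genes were still called and Loxl1 was not. Col26a1 and the type IV chain Col4a6 (0.53, adjusted p = 0.00134, edgeR) were called higher in addition. The median of all genes was then 0.06. Of 11 mural cell markers Vtn rose, and the sum was 439 to 472 against 526 to 545 CPM. Markers of granule neuron progenitors were called lower in 9 of 11, and their sum was 1853 to 1989 CPM in control and 892 to 961 CPM in mutant libraries, lower as were Col15a1 and Col18a1. Of the markers of other cells, 5 of 7 for Purkinje cells and 3 of 9 for astroglia were called higher. So were 6 of 8 for the oligodendrocyte lineage and 1 of 8 for microglia. Over all tested genes 3.03% were called higher and 3.63% lower. By sign, all estimates for Purkinje cells, astroglia and microglia were positive, and 1 of the oligodendrocyte lineage was negative (-0.45). The astroglial sum was 3342 to 3385 CPM in control and 4415 to 4775 CPM in mutant libraries. The part of these cell types in the collagen differences was not tested.

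Choroid plexus markers were uneven among the mutant libraries, at 135 to 204 CPM in control and 230.1, 38.4 and 798 CPM in mutant 1, 2 and 3, and of the 10 only Otx2 was called, as lower. Erythrocyte markers summed to 98.7 to 106 CPM and 82.4 to 118 CPM, and none of 5 tested was called. The 12 called collagen genes did not follow this order of the mutant libraries except Col8a2 and Col23a1, which were lowest in mutant 2 and highest in mutant 3. Both were still called without mutant 2 and without mutant 3.

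**Figure D5:**
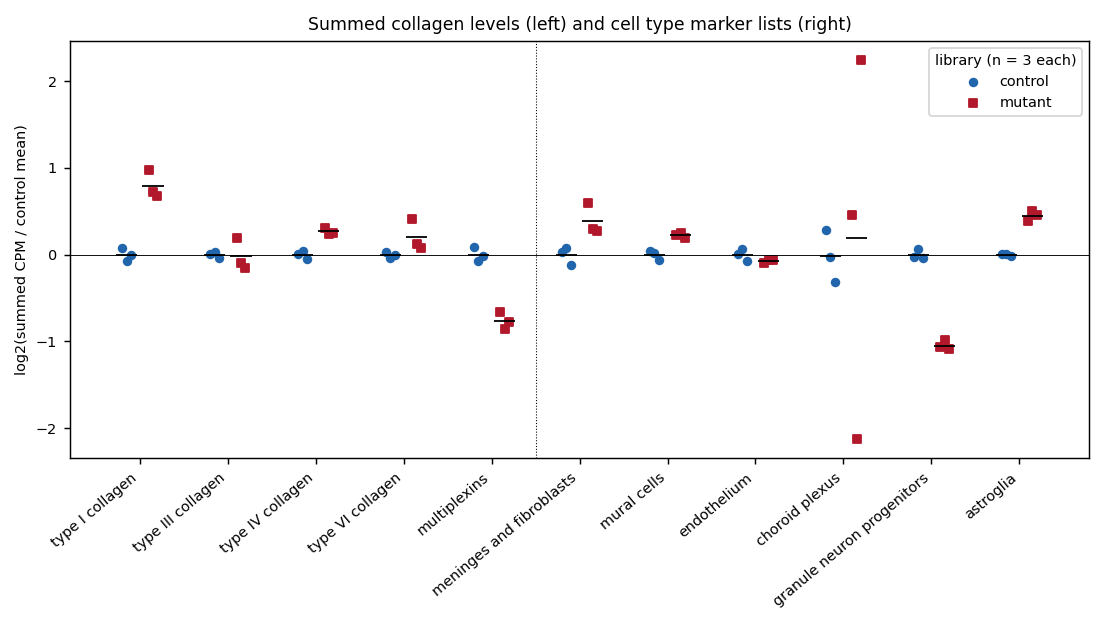
Summed CPM of 5 groups of collagen chains (left of the dotted line) and of 6 lists of cell type markers (right), as log2 over the mean of the control libraries; circles are control and squares mutant libraries, and short lines are group means. Type I collagen is higher and the multiplexins are lower in all mutant libraries, meningeal markers are higher, endothelial markers differ little, and choroid plexus markers are scattered.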

How the data were processed

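Poly(A) RNA of 6 libraries of P1 cerebella, 3 control and 3 mutant by their labels, was sequenced by the authors as paired reads of 150 bases. The deposited counts per gene were made by the authors by alignment to mm10 with HISAT2 2.0.5 and counting with featureCounts 1.5.0-p3; the annotation release is not given in the sources used here. The authors also deposited FPKM values, which rescale those counts by gene length and library total. The collagen genes, gene lists and comparisons were chosen with earlier results of these data known.

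From the counts, genes passing filterByExpr were tested with edgeR 4.0.16 (TMM, quasi-likelihood) in R 4.3.3, and p-values were adjusted over all 17505 tested genes. The procedure was tested on simulated data. Total counts per library were 15391854 to 17178478, and genes at or under 3 counts per library were taken as at the floor; this covers counting error only. Ratios of chains were compared by an exact permutation test over 20 arrangements. Alternatives were DESeq2 1.42.0, limma 3.58.1 on log2 FPKM, other scalings, filters and thresholds, a Y-chromosome covariate, a replicate block and the omission of each library. Replicate numbers were checked for pairing. Genes named were the called genes of each list, the 6 most abundant collagen genes, the chains of types I, III, IV, VI and XVIII, the chain pairs, Serpinh1 and the lysyl oxidases, as well as Tox3 and Atoh1. Other members named in the text were chosen after their values were seen. Gene coordinates were those of the count table, of which 59 of 60 were identical in GENCODE M21 (GRCm38), and promoter windows came from RefSeq (GRCm38.p6).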

Additional observations from a re-analysis of the deposited data

How the results depend on the processing

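The 3 falling and 9 rising collagen genes were the same genes with DESeq2, with DESeq2's size factors, with library size alone, with no filter, with at least 10 counts in every library and with the replicate block (561 genes called higher and 696 lower over all genes). The main fit did not treat equal replicate numbers as pairs. Same-number correlations of the deviations from the group means were 0.29, 0.33 and -0.17, and that of control 1 with mutant 3 was 0.30. With 3 libraries per group these values cannot decide whether the numbers pair the samples. Without single libraries 2 to 3 collagen genes fell and 7 to 9 rose, and over all genes 492 to 778 fell and 349 to 569 rose, the fewest without mutant 3. With limma on log2(FPKM + 1), over all genes 397 fell and 285 rose (286 and 176 with no filter, when 4 collagen genes rose), and with log2(FPKM + 0.1) 338 rose. A test against the fold threshold itself (glmTreat) called 145 genes lower and 30 higher, of which 1 collagen gene fell (Col15a1) and 1 rose (Col22a1). At an adjusted p under 0.05 without a fold threshold 2252 genes fell and 2136 rose, among them 5 and 21 collagen genes. The scalings to marker counts were added after seeing the data. Scaled to meningeal markers 4440 genes fell and 76 rose, among them 6 and 2 collagen genes, and the log2 fold changes turned to -0.17 for Col4a1, -0.11 for Col4a2, -0.0839 for Col4a3, -0.11 for Col6a1, -0.11 for Col6a2, -0.0784 for Col6a4, -0.0931 for Col6a5, -0.18 for Loxl2, -0.00257 for Loxl3 and -0.20 for Serpinh1. Estimates near 0 changed sign. Col3a1 was at 0.00607 with library size alone and 0.0612 scaled to endothelial markers, and between -0.12 and 0.0547 without single libraries. Col6a3 was at 0.00645, 0.0598 and between -0.0980 and 0.0567 in the same settings. Without single libraries Col6a5 ranged from -0.0927 to 0.62 and Col6a6 from -0.87 to 0.26. The chain ratios kept their direction with every library left out, except Col4a5/Col4a6 and Col6a1/Col6a2, whose differences were near 0. The cause of these changes was not tested. Estimates of scarce chains were less precise: at about 1 CPM the standard errors of Col4a3 and Col6a5 were 0.32 and 0.51 on the log2 scale, against 0.09 for Col1a1. Counts ran from 13 to 24 for Col4a3 and from 6 to 24 for Col6a5. The parts of depth and of spread between libraries in these errors were not tested.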
